A study of Mus musculus with 40 samples.

Results

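Amphiregulin (Areg), 5 further ligands of the epidermal growth factor family (Ereg, Btc, Hbegf, Tgfa and Egf) and the 4 ErbB receptors (Egfr, Erbb2, Erbb3 and Erbb4) were followed in the mouse mammary gland. These 10 genes were chosen by name out of 47729 gene symbols in the deposited tables, with no rule on their values, and all 10 passed the filter on low counts in both count tables. RNA came from a number 4 inguinal gland of Balb/cJ mice, cut between the teat and the site of the excised lymph node, so each library held epithelium, fat, stroma and whatever skin or muscle came with them. Every mouse, control or treated, had been ovariectomised at 21 d of age and left to recover for 7 d. Controls then ate a defined AIN 93G based diet, estrogen-treated mice ate that diet and drank water with 200 nM estrogen, and CLA-fed mice ate the diet with conjugated linoleic acid making up 2.7% as fat. The 60 h and 84 h libraries belong to estrogen and its controls, those of 108 h and 132 h to CLA and its controls. Agent and time therefore differ together, with 5 mice in each of the 8 groups.

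The ligands are made as membrane-anchored precursors, and proteases of the ADAM family cut them free, chiefly ADAM17 in the case of amphiregulin. Amphiregulin, TGF-alpha and EGF bind the EGF receptor, while betacellulin (Btc), HB-EGF (Hbegf) and epiregulin (Ereg) also bind ErbB4. ErbB2 has no known ligand of its own and pairs with the other receptors, and ErbB3, whose kinase is weak, binds neuregulins. In the pubertal mammary gland amphiregulin is known as the ligand made by ductal epithelium in response to estrogen, and the EGF receptor through which it drives duct growth is needed in the surrounding stroma.

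The ligands share a module with 6 cysteines, the part that binds the receptor, and its coding sequence is shown for 5 of them because it is what makes them 1 family. The capitals mark the 6 cysteine codons.
Areg: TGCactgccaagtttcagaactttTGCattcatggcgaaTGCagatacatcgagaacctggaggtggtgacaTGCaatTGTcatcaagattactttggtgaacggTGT
Ereg: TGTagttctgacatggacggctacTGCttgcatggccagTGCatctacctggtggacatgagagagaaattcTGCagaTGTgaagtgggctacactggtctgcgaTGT
Btc: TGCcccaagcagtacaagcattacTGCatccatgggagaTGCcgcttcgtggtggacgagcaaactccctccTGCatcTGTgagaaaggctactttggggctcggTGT
Tgfa: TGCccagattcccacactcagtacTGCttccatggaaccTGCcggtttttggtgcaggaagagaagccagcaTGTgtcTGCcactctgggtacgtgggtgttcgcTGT
Egf: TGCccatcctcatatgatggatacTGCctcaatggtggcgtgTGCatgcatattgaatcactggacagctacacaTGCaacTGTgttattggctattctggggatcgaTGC
Each was read from the longest coding transcript in GENCODE vM21 on GRCm38, and each crosses 2 exons. The module of Areg lies at chr5:91143614-91144364 (plus strand), that of Ereg at chr5:91088496-91089111 (plus) and that of Btc at chr5:91362421-91366197 (minus). That of Tgfa lies at chr6:86263200-86269960 (plus) and that of Egf at chr3:129686322-129690850 (minus). The first 4 modules are 108 bases long with the cysteine codons in the same places, and that of Egf, the last of the repeats in its long precursor, is 111 bases. Position by position, Areg matched Btc at 62 of 108 bases (57.4%), Ereg at 58 (53.7%) and Tgfa at 51 (47.2%), and the closest pair was Btc and Tgfa with 67 (62%).

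The 250 bases before the start of Areg are shown because Areg was the member with the largest change (GRCm38.p6, RefSeq, chr5:91139349-91139598, plus strand). Capitals mark a full cAMP response element, TGACGTCA, and a TATA box, TATAAA.
Areg promoter: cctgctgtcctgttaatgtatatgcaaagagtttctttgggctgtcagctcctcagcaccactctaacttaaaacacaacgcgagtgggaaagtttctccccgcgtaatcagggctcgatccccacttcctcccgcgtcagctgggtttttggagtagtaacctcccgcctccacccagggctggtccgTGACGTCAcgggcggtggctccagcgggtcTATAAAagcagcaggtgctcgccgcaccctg
The first motif begins 61 bases and the second 31 bases before the start, and they do not overlap. Searched on both strands, TGACGTCA occurred in 1.55% and TATAAA in 12.4% of 32851 mouse promoter windows of this length. Promoter windows were found for 7 of the 10 members, and among these 7 only that of Areg held either motif. The palindromic estrogen response element, GGTCA then any 3 bases then TGACC, did not occur in the Areg window and occurred in 0.0639% of all windows.

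Counts per library ran from 18183713 to 40026800. CPM below are counts scaled to library size, after TMM normalisation, a log2 fold change is against the control group of the same time, and a gene is said to rise or fall where edgeR's quasi-likelihood test gave a Benjamini-Hochberg adjusted p under 0.05 over all genes tested. Markers of skin and hair, a tissue that borders the gland, averaged above 1.5 log2 CPM in 10 libraries (1.60 to 6.41) and below it in 30 (-2.17 to 1.29), with control replicate 5 at 108 h (1.60) the nearest to that limit among the 10. The 10 were 1 estrogen library at 60 h, 3 estrogen libraries at 84 h, 3 controls at 108 h and 3 controls at 132 h, and 0 came from CLA-fed mice. Luminal epithelial markers, by contrast, were present in every group, but not evenly. Krt8, a keratin of luminal cells, averaged 3.45 ± 3.46 CPM (SD, n = 5) in controls at 60 h and 41.4 ± 9.68 with estrogen at 84 h. By library, the mean of the luminal markers ran from 0.12 log2 CPM in a control at 60 h to 4.90 with estrogen at 84 h. The animal numbers in the sample titles fall in 4 runs, and the last run holds all 10 estrogen-treated mice and no control, so that the run and estrogen cannot be told apart. In whole tissue, more cells of a type and more RNA per cell cannot be told apart either.

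**Figure D1:**
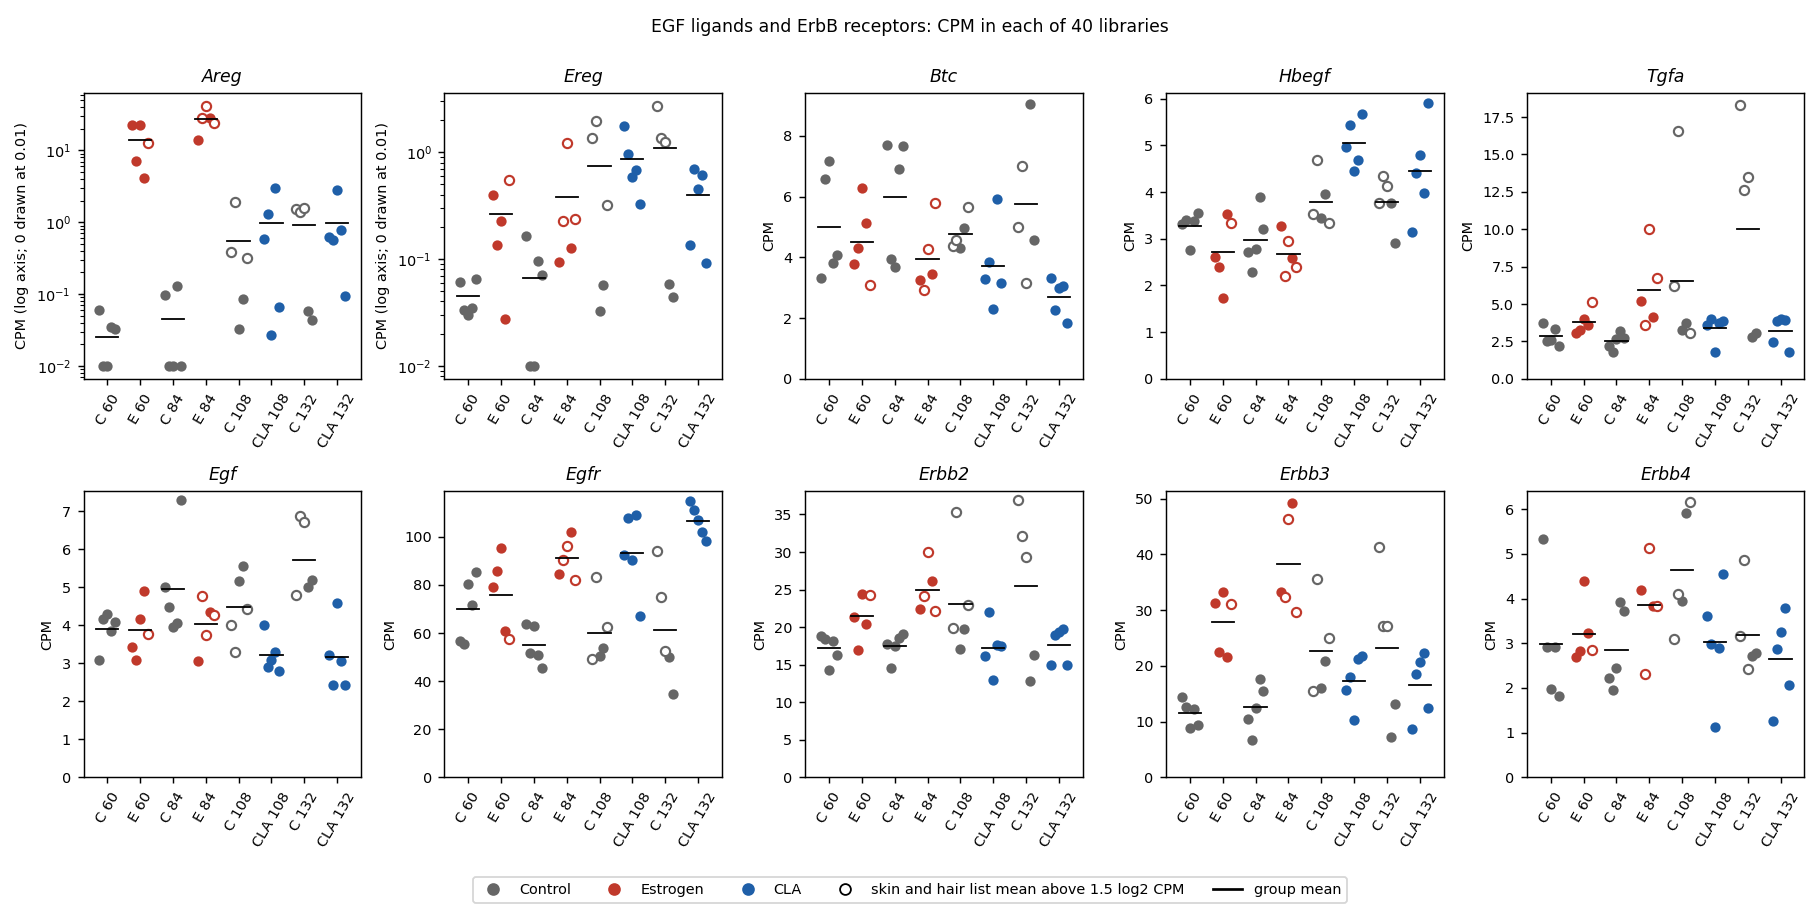
CPM of each of the 10 genes in each of the 40 libraries, by group (C, control; E, estrogen; numbers are hours), with group means as bars; open circles are the 10 libraries with a high skin and hair signal. Areg in the 10 estrogen libraries (4.19 to 42 CPM) lies above the other 30 libraries, and the highest Tgfa values, 12.6 to 18.3 CPM, are open circles of the later controls.

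Per kilobase of gene, the scale on which levels of different genes can be set side by side, Egfr was the most abundant member, at 4.57 ± 1.49 RPKM (mean ± SD over 40 libraries). Erbb2 (2.85 ± 0.835) and Erbb3 (2.55 ± 1.29) came next, and their ranges over libraries, 1.63 to 5.22 and 0.75 to 5.75 RPKM, overlapped almost whole. Among ligands Areg had the highest mean, 2.35 ± 4.42 RPKM, but its median was 0.236, so that by medians it was the seventh of the 10. Hbegf followed at 1.05 ± 0.331, then Btc at 0.717 ± 0.252, Tgfa at 0.476 ± 0.374 and Egf at 0.173 ± 0.0513. The lowest means were those of Ereg (0.0839 ± 0.117) and Erbb4 (0.037 ± 0.0182), and each gene's range over libraries overlapped that of its neighbour in the order. With estrogen Areg had the highest mean of the 10 at both times, 6.0 RPKM at 60 h above Egfr at 4.30, and 11.3 at 84 h above Egfr at 5.18. The Erbb4 counts are of another kind than its RPKM, since counts over RPKM imply a length of 88 kb for a gene with 12.4 kb of exons, against 0.716 to 2.12 times the exon length for the other 9 members. Its counts therefore hold reads that its RPKM leaves out.

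Estrogen was set against the control diet at 60 h and 84 h to follow the response of the gland to the hormone. Areg, nearly without reads in controls, rose about 500-fold, and Erbb3 rose with it at both times. Egfr rose at 84 h, and 0 members fell at either time. Of the 10 members, 2 rose at 60 h, where 6.49% of 17248 genes tested were called, 4.07% higher and 2.42% lower. At 84 h 3 of 10 rose, where 5.42% of 17180 genes were called, 3.45% higher and 1.97% lower. Of the genes called, 62.7% and 63.6% were higher with estrogen, or 76.2% and 75.5% with upper-quartile in place of TMM scaling. The 1119 and 931 genes called fell to 316 without estrogen replicate 1 at 60 h and to 443 without control replicate 1 at 84 h, the lowest of the leave-one-out fits. The median log2 fold change of the 10 was 0.22 and 0.62, against 0 and -0.01 over all genes tested.

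Amphiregulin (Areg, chr5:91139599-91148432, plus strand) in the 5 controls at 60 h stood at 0.0607, 0, 0, 0.0346 and 0.0324 CPM, which are 2, 0, 0, 1 and 1 counts. With estrogen at 60 h it stood at 22.7, 7.06, 22.7, 4.19 and 12.9 CPM. At 84 h controls gave 0.0978, 0, 0, 0.129 and 0 CPM (3, 0, 0, 4 and 0 counts) and estrogen 13.8, 28, 42, 28.1 and 24.4. Every estrogen library was far above every control library at both times. A count of 0 allows at most 0.0888 to 0.143 CPM in the 5 control libraries without a read (3 counts). The log2 fold change was 8.88 ± 1.35 (SE, adjusted p = 0.00256) at 60 h and 8.94 ± 1.02 (adjusted p = 7.2e-05) at 84 h, by edgeR's quasi-likelihood test. These are 472-fold (95% interval 75.8 to 2940) and 492-fold (122 to 1980), with the spread between mice included. Counted as reads, 2226 against 4 at 60 h gave a rate ratio of 542 (95% interval 211 to 1990) and 3489 against 7 at 84 h a ratio of 500 (242 to 1240), intervals that cover counting error only. Both calls held with each of the 10 libraries left out in turn, with a highest adjusted p of 0.014. Without the libraries high in skin markers the change was 8.91 at 60 h and 8.56 at 84 h, about as large as with them. Luminal markers were lower in these controls too, with library means of 0.12 to 2.90 log2 CPM against 3.51 to 4.56 with estrogen at 60 h. The part of epithelial content in the Areg change was not tested.

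In the 2 later control groups Areg was more variable. Controls at 108 h stood at 0.384, 1.9, 0.0324, 0.0849 and 0.322 CPM and those at 132 h at 1.54, 1.4, 1.58, 0.0588 and 0.0441. In each of these groups the 3 highest values were in the 3 libraries high in skin markers. CLA-fed mice stood at 0.589, 1.31, 0.0267, 2.96 and 0.0659 CPM at 108 h and at 0.629, 0.57, 2.79, 0.786 and 0.0925 at 132 h, overlapping their controls. Areg did not pass the test with CLA, with log2 fold changes of 0.85 ± 0.93 (adjusted p = 0.484) at 108 h and -0.02 ± 0.73 (adjusted p = 0.983) at 132 h. Among libraries low in skin markers, the CLA libraries were compared with only 2 controls of 0.0324 to 0.0849 CPM at 108 h and 2 of 0.0441 to 0.0588 at 132 h. The change was then 3.93 (adjusted p = 0.095) and 4.12 (adjusted p = 0.052), again not called. The highest CLA library, 2.96 CPM, was below the lowest estrogen library, 4.19.

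Epiregulin (Ereg, chr5:91074622-91093646, plus strand), whose gene lies just upstream of Areg, was near the limit of detection in the early controls. Controls at 60 h held 0.0607, 0.0331, 0.0296, 0.0346 and 0.0648 CPM and estrogen libraries 0.398, 0.134, 0.227, 0.0274 and 0.544. At 84 h controls held 0.163, 0, 0, 0.0967 and 0.0711 and estrogen libraries 0.0945, 0.226, 1.21, 0.127 and 0.235. Means were higher with estrogen but single libraries overlapped, and neither log2 fold change, 2.45 ± 1.13 (adjusted p = 0.199) or 2.21 ± 1.12 (adjusted p = 0.262), passed the test. The highest estrogen library at each time, 0.544 and 1.21 CPM, was one high in skin markers. With CLA Ereg ranged from 0.329 to 1.77 CPM at 108 h against 0.0324 to 1.96 in controls, and from 0.0925 to 0.697 against 0.0441 to 2.72 at 132 h. It was not called at either time (0.19 ± 0.71, adjusted p = 0.846, and -1.46 ± 0.81, adjusted p = 0.136). Leaving out the libraries high in skin markers, of which the CLA groups have 0, left 2 controls at 0.0324 and 0.0566 CPM at 108 h. The Ereg difference was then 4.13 and passed the test (adjusted p = 0.00193).

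Betacellulin (Btc, chr5:91357261-91402994, minus strand) fell with CLA at 132 h. Controls stood at 4.99, 7.01, 3.17, 9.06 and 4.58 CPM and CLA-fed mice at 3.32, 2.28, 2.98, 3.06 and 1.85, so that 1 CLA library lay above the lowest control. The log2 fold change was -1.11 ± 0.28 (adjusted p = 0.00244), it held in each of 10 leave-one-out fits, and it was -1.34 without the libraries high in skin markers. At 108 h Btc ranged from 2.29 to 5.93 CPM with CLA and from 4.31 to 5.65 in controls and was not called (-0.37 ± 0.25, adjusted p = 0.234), except without CLA replicate 4 (-0.60, adjusted p = 0.0464). With estrogen it was not called either (-0.14 ± 0.25 at 60 h and -0.60 ± 0.28 at 84 h, adjusted p = 0.79 and 0.216).

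HB-EGF (Hbegf, on chromosome 18) stood at 3.54, 4.69, 3.44, 3.96 and 3.33 CPM in controls at 108 h and at 4.96, 5.44, 4.46, 4.68 and 5.67 with CLA. One control, at 4.69, lay within the CLA range. The gene rose by 0.41 ± 0.16 (adjusted p = 0.0383), but the call was lost in 7 of 10 leave-one-out fits, when any library but control replicate 2 or CLA replicates 3 and 4 was left out (highest adjusted p 0.0959). It was also lost with upper-quartile scaling (0.35, adjusted p = 0.076) and with a term for the run of animal numbers (0.40, adjusted p = 0.06). It was not called with estrogen, at -0.27 ± 0.16 (adjusted p = 0.33) at 60 h and -0.15 ± 0.18 (adjusted p = 0.686) at 84 h. At 132 h with CLA Hbegf was at 0.22 ± 0.17 (adjusted p = 0.292).

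The Egf gene (chr3:129677565-129755316, minus strand), which encodes the ligand that named the family, fell with CLA at both times. At 108 h controls stood at 4.01, 3.29, 5.18, 5.57 and 4.43 CPM and CLA libraries at 4.02, 2.91, 3.09, 3.3 and 2.8, with some overlap. At 132 h controls stood at 4.79, 6.88, 6.72, 5 and 5.2 CPM and CLA libraries at 3.23, 2.44, 4.6, 3.06 and 2.44, with no overlap. The log2 fold changes were -0.48 ± 0.16 (adjusted p = 0.0153) and -0.88 ± 0.20 (adjusted p = 0.000907), and -0.74 and -0.71 without the libraries high in skin markers, both still called (adjusted p = 0.00532 and 0.0495). The 108 h change missed the threshold when control replicate 4 was left out (-0.39, adjusted p = 0.0536) and again in the RPKM values, where limma on log2(RPKM + 0.1) gave -0.16 (adjusted p = 0.33). Mean RPKM was 0.145 with CLA and 0.175 in controls, close to the 0.1 added, which shrinks the change. With estrogen Egf was at -0.01 ± 0.15 and -0.29 ± 0.20 (adjusted p = 0.989 and 0.424).

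TGF-alpha (Tgfa, chr6:86195223-86275719, plus strand), a ligand of the EGF receptor that skin keratinocytes also make, was called lower with CLA at both times, against control groups in which 3 of 5 libraries were high in skin markers. Controls at 108 h stood at 6.2, 16.6, 3.24, 3.74 and 3.04 CPM and CLA libraries at 3.57, 4.02, 1.79, 3.74 and 3.89. Controls at 132 h stood at 18.3, 12.6, 13.5, 2.77 and 3.04 CPM and CLA libraries at 2.43, 3.86, 4.03, 3.93 and 1.82. The 5 highest control values, 6.2 to 18.3 CPM, were all in libraries high in skin markers, and the 4 controls low in them, at 2.77 to 3.74, lay inside the CLA range. Control replicate 5 at 108 h, high in skin markers by a small margin, had the lowest Tgfa of its group, 3.04 CPM. The log2 fold changes were -0.95 ± 0.38 (adjusted p = 0.0469) and -1.66 ± 0.44 (adjusted p = 0.00377). Without the libraries high in skin markers they were -0.05 (adjusted p = 0.91) and 0.13 (adjusted p = 0.754), and without those high in muscle markers the 132 h change was -0.95 (adjusted p = 0.178). The controls high in muscle markers at 132 h, replicates 1 and 2, were also high in skin markers, so these checks overlap. At 108 h the call was also lost in 7 of 10 leave-one-out fits, and control replicate 2, at 16.6 CPM, moved it most (-0.26 without it, adjusted p = 0.42). A term for the run of animal numbers (-0.86, adjusted p = 0.0562) or a fit of all 40 libraries (-0.95, adjusted p = 0.063) ended it too. Of 13 and 14 skin and hair genes tested with CLA, 10 fell at 108 h and 12 at 132 h, with medians of -6.5 and -6.82. Markers of basal epithelium, several of which skin keratinocytes also express, fell beside them in 5 and 6 of 9 genes, with medians of -1.66 and -2.36. Among all genes tested, 23.0% and 29.0% were lower. The part of basal epithelium in the Tgfa and Erbb2 changes was not tested.

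With estrogen at 84 h Tgfa stood at 5.2, 3.59, 10, 4.14 and 6.76 CPM against 2.22, 1.76, 2.65, 3.22 and 2.74 in controls. The groups did not overlap, yet the change of 1.23 ± 0.45 did not pass the test (adjusted p = 0.112). It passed when only these 2 groups were fitted (1.25, adjusted p = 0.0222). The 2 estrogen libraries low in skin markers held 4.14 and 5.2 CPM, and the 3 high in them held 3.59, 6.76 and 10. At 60 h the change was 0.41 ± 0.38 (adjusted p = 0.569).

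Among receptors, Erbb3 (chr10:128567523-128589652, minus strand) was the one that rose with estrogen at both times. At 60 h controls stood at 14.4, 12.6, 8.82, 12.2 and 9.43 CPM and estrogen libraries at 31.3, 22.5, 33.2, 21.5 and 31. At 84 h controls stood at 10.5, 6.77, 12.5, 17.7 and 15.5 CPM and estrogen libraries at 33.3, 32.4, 46.4, 49.2 and 29.7. No estrogen library overlapped its controls. The log2 fold changes were 1.28 ± 0.24 (adjusted p = 0.00799) and 1.60 ± 0.38 (adjusted p = 0.0201), which are 2.43-fold (95% interval 1.76 to 3.35) and 3.04-fold (1.81 to 5.11). Leaving out control replicate 1 or 2, or estrogen replicate 3 or 4, ended the 84 h call (highest adjusted p 0.0626), while the change stayed between 1.45 and 1.56 in those fits. Both were called without the libraries high in skin markers too, at 1.24 and 1.71. Without those high in skeletal muscle markers, a set chosen after seeing the data, the 84 h change was 1.80 and missed the threshold (adjusted p = 0.1).

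Markers of luminal epithelium moved with Erbb3. Of 18 luminal genes, 14 rose and 0 fell with estrogen at 60 h, with a median log2 fold change of 2.34. At 84 h 9 rose and 0 fell, with a median of 2.19. Among all genes tested, 4.07% and 3.45% were higher. The mean of the luminal genes per library ran from 0.12 to 2.90 log2 CPM in controls and 3.51 to 4.56 with estrogen at 60 h. At 84 h it ran from 0.35 to 3.37 and from 4.06 to 4.90. Basal epithelial markers were higher too, with medians of 1.85 and 1.55, though only 1 of 9 was called at each time. The basal mean per library ran from 2.47 to 4.36 log2 CPM in controls and 4.44 to 5.64 with estrogen at 60 h. At 84 h the basal mean ran from 2.23 to 4.47 and from 5.05 to 6.04. Progesterone receptor (Pgr), a luminal gene and estrogen receptor target, rose by 4.50 ± 0.57 and 4.88 ± 0.59 (adjusted p = 0.000689 and 9.4e-05), and Krt7, a luminal keratin, by 2.81 ± 0.55 at 60 h (adjusted p = 0.0116). The part of epithelial content in the Erbb3 change was not tested. With CLA Erbb3 was not called at 108 h (-0.38 ± 0.23, adjusted p = 0.186) or 132 h (-0.51 ± 0.37, adjusted p = 0.259), and without the libraries high in skin markers it was at -0.10 and 0.68 (adjusted p = 0.809 and 0.224).

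**Figure D2:**
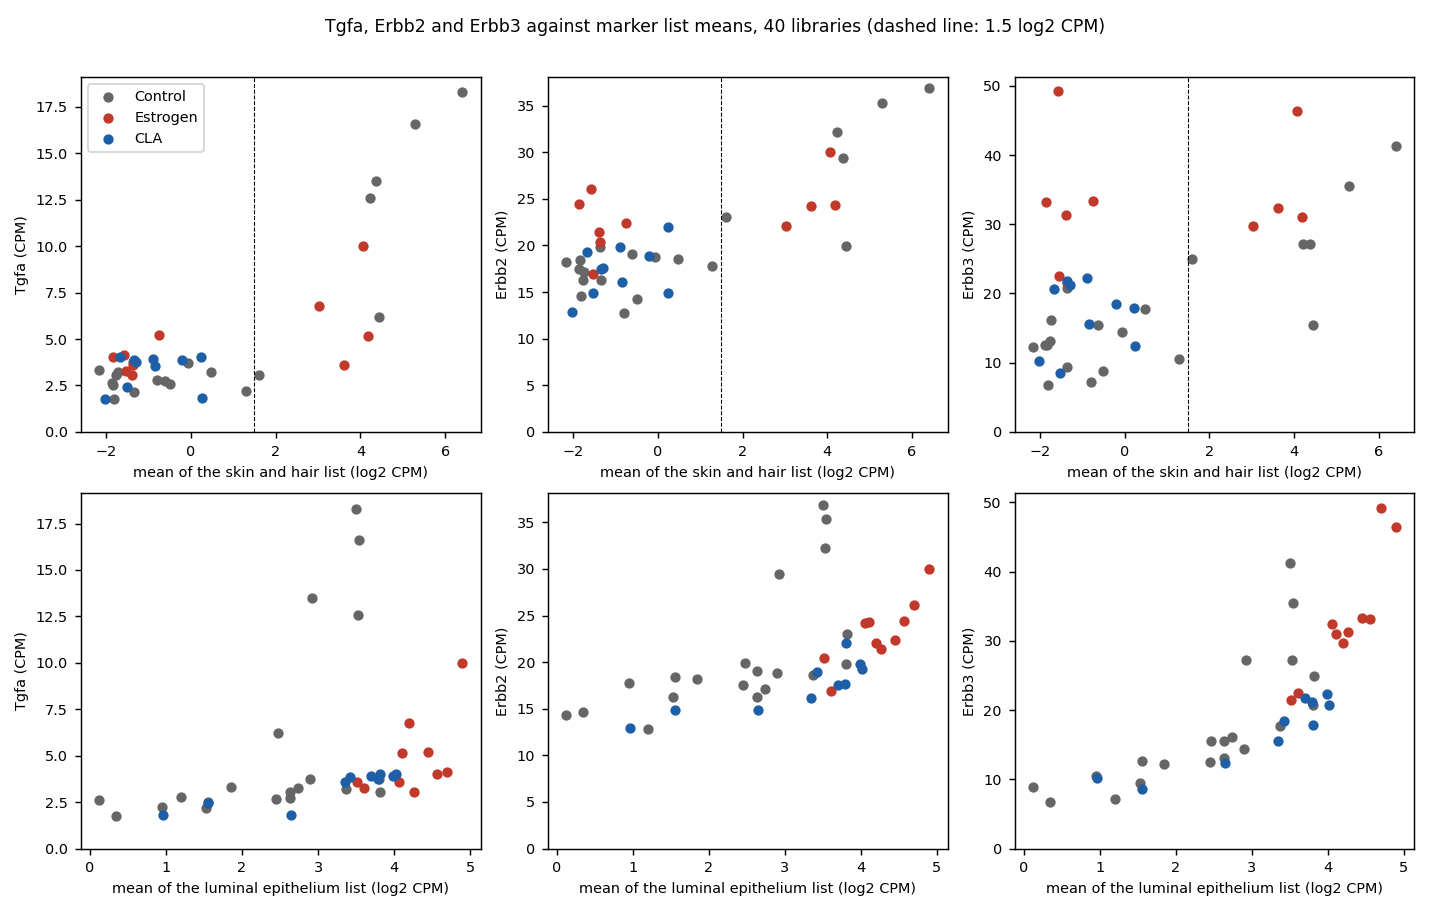
CPM of Tgfa, Erbb2 and Erbb3 in each of the 40 libraries against the mean of the skin and hair markers (top, dashed line at 1.5 log2 CPM) and of the luminal epithelium markers (bottom). Tgfa exceeds 5.2 CPM only to the right of the line, whereas the highest Erbb3 library, at 49.2 CPM, lies to its left and near the upper end of the luminal scale.

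The EGF receptor (Egfr, chr11:16752203-16918158, plus strand) was higher with estrogen at 84 h and with CLA at both times. At 84 h estrogen libraries stood at 84.7, 90.5, 96.1, 102 and 81.9 CPM and controls at 63.7, 51.6, 63, 51 and 45.4, with no overlap. The change was 0.73 ± 0.18 (adjusted p = 0.0252), a 1.66-fold rise (1.30 to 2.14), and it was 0.77 without the libraries high in skin markers. It missed the threshold when either of control replicates 2 and 5 or of estrogen replicates 3 and 4 was left out (0.69 to 0.71, highest adjusted p 0.0653). At 60 h controls ranged from 55.3 to 85.3 CPM and estrogen libraries from 57.4 to 95.5, and the gene was not called (0.12 ± 0.18, adjusted p = 0.755).

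With CLA at 108 h Egfr stood at 92.3, 108, 90.2, 109 and 67 CPM, against 49.1, 83.4, 50.5, 53.8 and 62.6 in controls. At 132 h the CLA libraries stood at 115, 111, 107, 102 and 98.2 CPM, all above controls at 94.3, 75, 52.6, 50.2 and 34.7. The rises were 0.64 ± 0.18 (adjusted p = 0.00681) and 0.78 ± 0.18 (adjusted p = 0.00144), which are 1.56-fold (1.22 to 1.99) and 1.72-fold (1.34 to 2.21). Both calls held in each leave-one-out fit. The rises were larger, 0.83 and 1.32 (adjusted p = 0.00703 and 2.06e-05), when the libraries high in skin markers were left out. Beside Egfr, 10 of 10 macrophage markers rose at both times (medians 1.98 and 2.89), fibroblast markers rose in 6 of 7 genes at 132 h but gave 2 higher and 1 lower at 108 h, and 9 of 10 adipocyte markers fell at both times (medians -0.90 and -1.16). Endothelial markers were lower in 6 and 5 of 6 genes and basal epithelial markers in 5 and 6 of 9. Among all genes tested, 24.9% and 27.0% were higher and 23.0% and 29.0% lower. The part of these cell types in the Egfr change was not tested.

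Erbb2 (chr11:98412470-98437716, plus strand), the receptor without a ligand, was called lower with CLA at both times against the same controls. Controls at 108 h stood at 19.9, 35.3, 17.1, 19.8 and 23 CPM and CLA libraries at 16.1, 22, 12.9, 17.6 and 17.5. Controls at 132 h stood at 36.9, 32.2, 29.4, 12.8 and 16.3 CPM and CLA libraries at 14.9, 18.9, 19.3, 19.8 and 14.9, so that the 3 high controls were the 3 high in skin markers. At 108 h the controls high in skin markers, at 19.9, 35.3 and 23 CPM, all lay above the other 2, at 17.1 and 19.8. The margin was small at the nearest (19.9 against 19.8) and wide for the highest, 35.3. Erbb2 fell by 0.42 ± 0.17 (adjusted p = 0.0461) and by 0.56 ± 0.21 (adjusted p = 0.0316). Without those libraries it was at -0.11 (adjusted p = 0.651) at 108 h and turned to 0.26 (adjusted p = 0.179) at 132 h. The calls were lost in 6 and 5 of 10 leave-one-out fits. At 108 h these were the fits without control replicate 2 or 5 or CLA replicate 1, 3, 4 or 5 (highest adjusted p 0.201), and at 132 h those without control replicates 1 to 3 or CLA replicate 1 or 5 (0.115). A fit of all 40 libraries also ended the 108 h call (-0.42, adjusted p = 0.0775), and limma on log2(RPKM + 0.1) ended both (adjusted p = 0.137 and 0.385).

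With estrogen at 84 h Erbb2 stood at 22.4, 24.2, 30, 26.1 and 22.1 CPM, all above controls at 17.8, 14.6, 17.5, 18.6 and 19.1. The libraries high in skin markers (24.2, 30 and 22.1) did not separate from the other 2 (22.4 and 26.1). The change of 0.51 ± 0.21 was not called (adjusted p = 0.163), though it was when those 2 groups were fitted alone (0.53, adjusted p = 0.00976). At 60 h the change was 0.32 ± 0.17 (adjusted p = 0.267).

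Erbb4 (chr1:68032186-69108059, minus strand), the receptor that neuregulins use in the differentiating gland, passed the test in 0 of the 4 comparisons. Its CPM ran from 1.12 to 6.15 over all libraries. The log2 fold changes were 0.10 ± 0.32 and 0.43 ± 0.28 with estrogen and -0.62 ± 0.32 and -0.28 ± 0.28 with CLA (adjusted p = 0.899, 0.406, 0.117 and 0.411). In the RPKM values, which leave out most reads counted for this gene, limma on log2(RPKM + 0.1) gave -0.42 with CLA at 108 h (adjusted p = 0.00234). The 0.1 added is larger than the mean RPKM of either group, 0.0181 with CLA and 0.0585 in controls. It therefore shrinks the size of that change.

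With CLA, 5 of the 10 members were called at each time. At 108 h there were 2 higher and 3 lower, where 47.9% of 17248 genes were called, 24.9% higher and 23.0% lower. At 132 h there were 1 higher and 4 lower, where 56.0% of 17180 were called, 27.0% higher and 29.0% lower. Shares of 5 in 10 lie near those backgrounds. The medians of the 10 were -0.38 and -0.54, against -0.01 and -0.03 over all genes tested. Without the libraries high in skin markers 3 of 10 were called at each time, where 35.8% and 41.8% of genes were. At 108 h the count was 2 to 4 with any 1 library left out, and at 132 h 4 to 5.

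**Figure D3:**
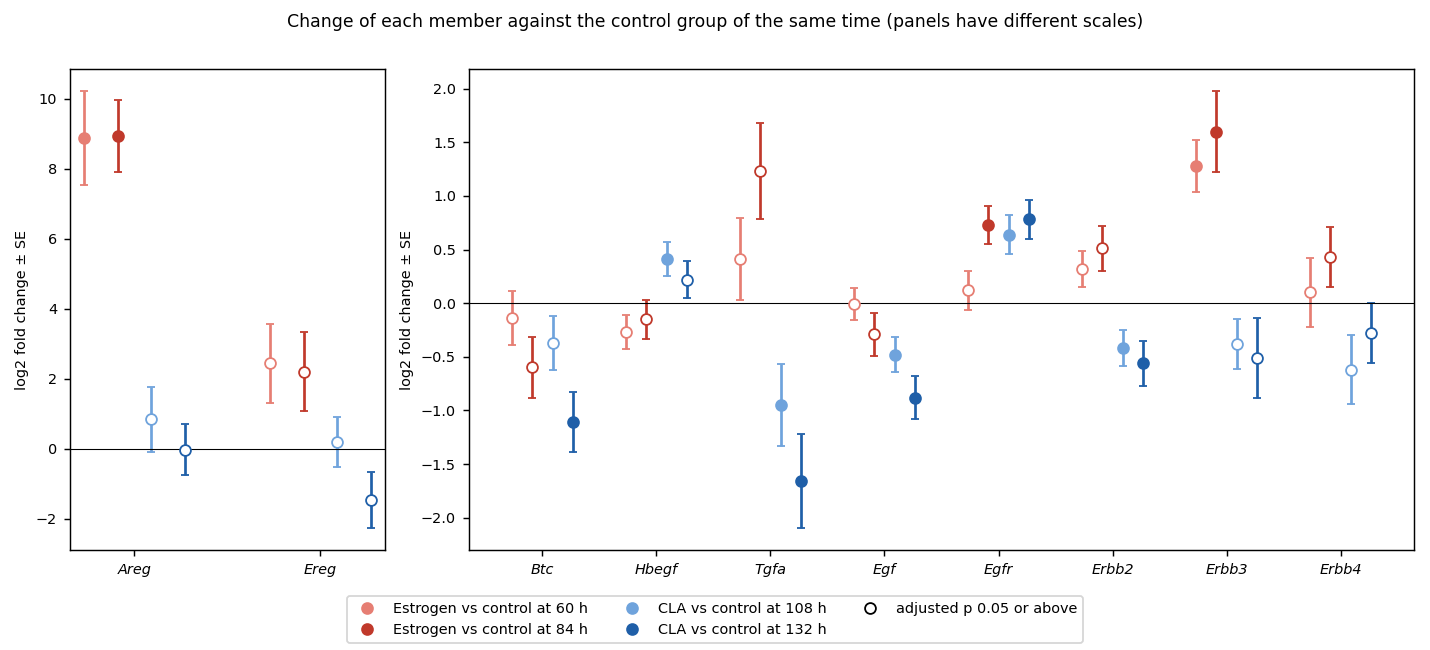
Log2 fold change ± SE of each member against the control group of its own time, in 4 comparisons of 5 against 5 libraries; filled points passed the adjusted p threshold of 0.05 and the panels have different scales. Areg with estrogen sits at 8.88 and 8.94, Erbb3 at 1.28 and 1.60, and Egfr is above 0 in all 4 comparisons and called in 3.

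The CLA and estrogen effects were also set against each other within each deposited table, each effect taken against its own controls, to show which members responded differently. Agent and time differ together in this comparison. At 108 h against 60 h, 4 of 10 members differed, where 32.1% of genes did. Areg was lower by -8.04 ± 1.70 (adjusted p = 0.00187), Erbb3 by -1.67 ± 0.33 (0.00105) and Erbb2 by -0.74 ± 0.24 (0.023), and Hbegf was higher by 0.68 ± 0.22 (0.0261). At 132 h against 84 h, 5 of 10 differed, where 38.0% of genes did. They were Areg (-8.96 ± 1.28, adjusted p = 3.97e-05), Tgfa (-2.90 ± 0.63, 0.00144), Erbb3 (-2.12 ± 0.53, 0.0047), Erbb2 (-1.07 ± 0.30, 0.00856) and Ereg (-3.68 ± 1.38, 0.0425). The Egfr effects did not differ beyond the error (0.52 ± 0.25, adjusted p = 0.125, and 0.05 ± 0.26, adjusted p = 0.906). Without the libraries high in skin markers the Areg differences were -4.98 and -4.45 and were no longer called (adjusted p = 0.329 and 0.397). At 132 h against 84 h, 0 of 10 members were then called, where 19.7% of genes were. Those fits kept only 2 controls at 108 h, 2 controls at 132 h and 2 estrogen libraries at 84 h, so they could miss differences.

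Between times, 0 members differed in their estrogen effect (84 h minus 60 h), where 1 of 17852 genes did (0.00560%, with 1160 at an unadjusted p under 0.05 and 17 called by DESeq2). The Egfr difference was 0.61 ± 0.26 (adjusted p = 0.723), so the call at 84 h and not at 60 h is no shown difference. Likewise 0 members differed in their CLA effect (132 h minus 108 h), where edgeR called 0 genes (0.00%), with 2216 at an unadjusted p under 0.05 and 114 called by DESeq2. Across the 4 control groups, 4 members differed in edgeR's test: Areg (adjusted p = 0.016), Ereg (0.00468), Tgfa (0.00347) and Erbb3 (0.0321), where 13.4% of genes did. Against 60 h, Areg was 4.20 higher at 108 h and 5.01 higher at 132 h on the log2 scale, and Tgfa 1.19 and 1.81 higher. Without the libraries high in skin markers 0 members and 16 of 18193 genes (0.0879%) differed. That fit kept only 2 controls at 108 h and 2 at 132 h, so it could miss differences.

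The 5 other ligands of the ErbB receptors were read beside the members. Nrg4, a neuregulin made by adipocytes, was below the control mean in every CLA library and fell. Controls averaged 56.5 ± 8.57 CPM and CLA libraries 30.1 ± 5.64 at 108 h, and the averages at 132 h were 61.6 ± 11.8 and 23.4 ± 3.95. The changes were -0.91 ± 0.14 (adjusted p = 1.95e-05) and -1.41 ± 0.12 (adjusted p = 1.83e-08), beside the fall of 9 of 10 adipocyte markers, among them Adipoq by -1.11 ± 0.10 and -1.44 ± 0.13. Epigen (Epgn), a ligand of the EGF receptor, fell with CLA at 132 h by -1.79 ± 0.60 (adjusted p = 0.0157), to 0.202 ± 0.0951 CPM from 0.684 ± 0.515. At 60 h and 108 h it was below the filter on low counts, and an exact two-sided permutation test gave p = 0.437 and 0.111, with 0.00794 the smallest possible. Nrg1, Nrg2 and Nrg3, neuregulins that bind ErbB3 or ErbB4, were not called in any of the 4 comparisons, and 0 of the 5 were called with estrogen. As for Erbb4, the counts of Nrg1 and Nrg3 hold reads that their RPKM leaves out. Controls at 60 h averaged 4.30 CPM and 0.0163 RPKM for Nrg1, and 0.888 CPM and 0 RPKM for Nrg3. Estrogen libraries at 60 h averaged 4.03 CPM and 0.0524 RPKM for Nrg1. The lack of a call for these genes therefore holds for counts only.

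Ligand shedding was read from 11 genes, the ADAM proteases, their cofactors and processing enzyme, and the inhibitor Timp3. With estrogen 0 were called at 60 h or 84 h, where 6.49% and 5.42% of all genes were. The nearest at 60 h was Rhbdf1, a cofactor of ADAM17, at 0.22 ± 0.07 (adjusted p = 0.0774). It was at 0.23 ± 0.08 (adjusted p = 0.101) at 84 h, where Adam19 was nearer (-0.28 ± 0.09, adjusted p = 0.0796). At 108 h of CLA 6 were higher and 1 lower, and at 132 h 8 were higher and 2 lower, with medians of 0.23 and 0.34. These are 54.5% and 72.7% higher, against 24.9% and 27.0% of all genes. Timp3 was among the lower (-0.55 ± 0.17 and -0.53 ± 0.16, adjusted p = 0.0103 and 0.00685). Adam17, the main sheddase of amphiregulin, rose by 0.58 ± 0.07 at 108 h (adjusted p = 2.93e-06) and by 0.79 ± 0.14 at 132 h (adjusted p = 6.41e-05). Adam8, a protease of myeloid cells, rose by 4.03 ± 0.49 and 4.98 ± 0.32 (adjusted p = 3.74e-06 and 7.79e-10), beside macrophage markers such as Cd68 with 2.85 ± 0.21 and 3.64 ± 0.18.

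Signal carriers below the receptors split both ways. Of 29 genes from adaptors to ERK, 1 was higher and 3 were lower with estrogen at 60 h, then 1 and 1 at 84 h, with medians of -0.02 at both times. Over all genes tested, 6.49% and 5.42% were called at these times. Sos2, an exchange factor for Ras, fell by 0.23 ± 0.06 and 0.25 ± 0.05 (adjusted p = 0.0294 and 0.00721), and Stat5a, a transcription factor of the gland's epithelium, rose by 0.32 ± 0.07 at 60 h (adjusted p = 0.0184). CLA at 108 h gave 9 higher and 10 lower, and at 132 h 12 of each, 19 and 24 of 29 called where 47.9% and 56.0% of all genes were. The adaptor Grb2 rose by 0.76 ± 0.06 and 0.92 ± 0.07 (adjusted p = 1.36e-08 and 6.1e-09) and the phospholipase Plcg1 fell by 0.58 ± 0.08 and 0.75 ± 0.07 (adjusted p = 5.27e-06 and 3.75e-08).

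Among 20 inhibitors of the receptors and of ERK, estrogen gave 2 higher and 1 lower at 60 h and 1 higher at 84 h. The shares called over all genes were 6.49% and 5.42%. Errfi1, which blocks the EGF receptor kinase, rose by 0.82 ± 0.23 at 60 h (adjusted p = 0.041), while Dusp4, an ERK phosphatase, fell by 1.12 ± 0.28 (adjusted p = 0.0272). Cblc, an epithelial ubiquitin ligase, rose at both times (1.56 ± 0.43 and 1.63 ± 0.41, adjusted p = 0.0369 and 0.0238). CLA gave 4 higher and 1 lower at 108 h, then 6 higher and 2 lower at 132 h, 5 and 8 of 20 called where 47.9% and 56.0% of all genes were. Spred1, which restrains Raf, rose by 0.71 ± 0.09 and 1.19 ± 0.12 (adjusted p = 1.92e-06 and 1.31e-07) and the ERK phosphatase gene Dusp5 by 2.23 ± 0.31 and 2.05 ± 0.34. Lrig1, which promotes loss of ErbB receptors, fell by 0.57 ± 0.10 and 0.95 ± 0.10 (adjusted p = 0.00016 and 9.88e-08).

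Genes known to be switched on by ERK were called higher or not at all in these comparisons. Of 14, 3 rose at 60 h and 2 at 84 h with estrogen, where 4.07% and 3.45% of all genes were higher. Their medians were 0.31 and 0.18, and 0 fell. Etv4, an ETS factor, rose by 2.27 ± 0.43 and 2.60 ± 0.49 (adjusted p = 0.00921 and 0.00391), and the cyclin gene Ccnd1 by 0.65 ± 0.14 at 60 h (adjusted p = 0.0155). With CLA 11 rose at 108 h and 9 at 132 h and 0 fell, with medians of 0.97 and 0.76, where 24.9% and 27.0% of all genes were higher. Fosl1, a component of AP-1, rose by 2.0 ± 0.17 and 1.86 ± 0.16 (adjusted p = 1.65e-08 and 9.59e-09) and Myc by 1.38 ± 0.18 and 1.47 ± 0.14. These genes answer to many signals besides ErbB receptors, and the 10 macrophage markers rose in the same CLA libraries, from 4.06 to 5.51 log2 CPM in controls to 7.22 to 8.19. The part of macrophages in the CLA changes was not tested.

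**Figure D4:**
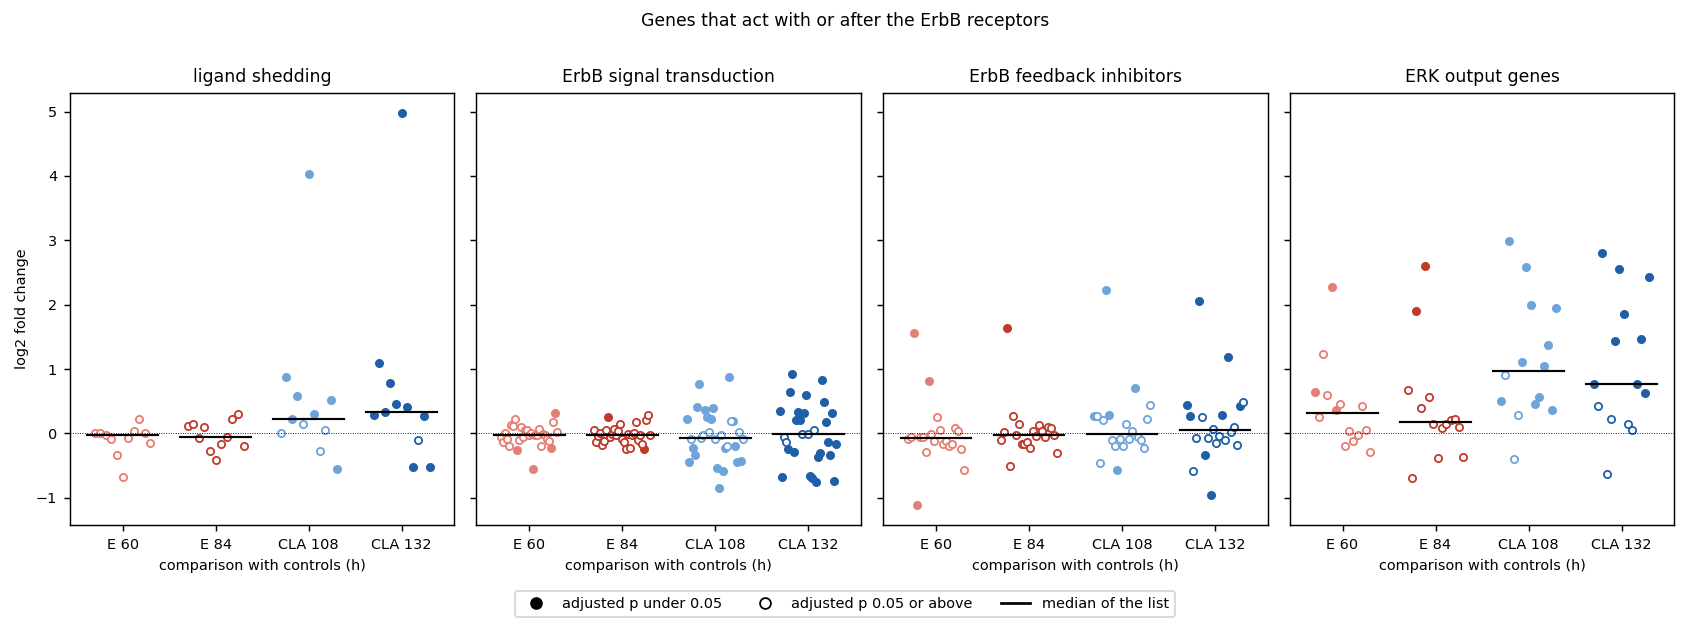
Log2 fold change of each gene of 4 lists in 4 comparisons with controls (E, estrogen; numbers are hours); filled points passed the threshold and bars are list medians. Shedding and ERK output genes have medians of 0.23 to 0.97 with CLA, while the medians of signal carriers lie between -0.07 and -0.01.

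Areg, Ereg, Epgn and Btc lie in a row on chromosome 5 beside a cluster of chemokine genes, which let the change of Areg be read against its neighbours. Of 22 annotated genes that start within 500 kb of the start of Areg, 12 were tested at 60 h and Areg was the only one called with estrogen. At 84 h 13 were tested and 2 were called, Areg and Cxcl15, a chemokine gene 345.1 kb away. Over all genes, 6.49% were called at 60 h and 5.42% at 84 h. Cxcl15 rose by 5.45 ± 0.61 (adjusted p = 4.02e-05), from 0.0129 ± 0.0288 to 0.83 ± 0.281 CPM, and at 60 h, where it missed the filter, it averaged 0.658 ± 0.548 against 0.012 ± 0.0164 CPM. Mthfd2l, between the chemokines and Epgn, was at -0.06 ± 0.06 and 0.17 ± 0.08, and Parm1, on the far side of Btc, at 0.19 ± 0.27 and 0.23 ± 0.26. In this region CLA gave 3 higher and 2 lower of 12 genes tested at 108 h. At 132 h it gave 5 higher and 3 lower of 13. These counts lie near the shares of all genes called, 47.9% and 56.0%. The platelet and macrophage chemokine genes Pf4 (1.28 ± 0.22 and 1.55 ± 0.12) and Ppbp (1.39 ± 0.34 and 2.39 ± 0.43) and the neutrophil chemokine gene Cxcl1 (2.04 ± 0.49 and 2.96 ± 0.41) rose at both times.

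**Figure D5:**
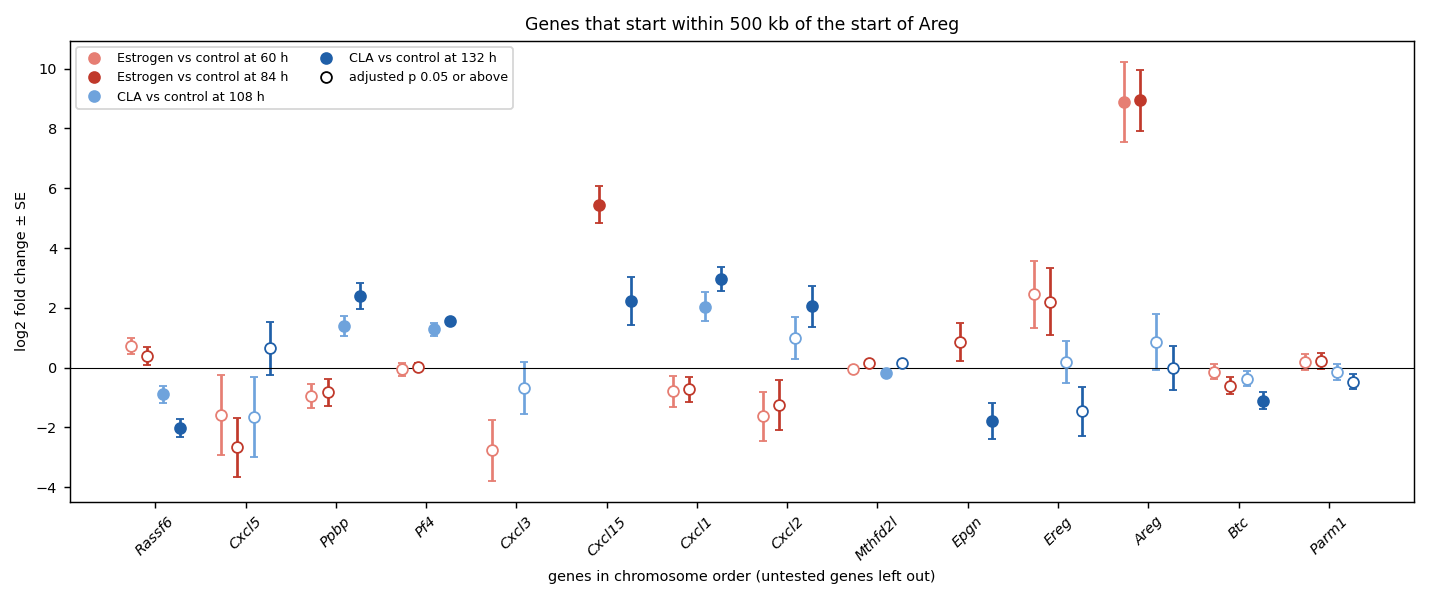
Log2 fold change ± SE of the tested genes that start within 500 kb of the start of Areg, in chromosome order, in the 4 comparisons; filled points passed the threshold. Areg stands at 8.88 and 8.94 with estrogen, Cxcl15 at 5.45, and the chemokine genes Ppbp, Pf4 and Cxcl1 are called in both CLA comparisons.

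Over the 40 libraries, the genes whose log2 CPM followed Areg most closely among 12348 searched were Col7a1, a collagen of the epithelial basement membrane (Pearson r = 0.886), Pgr (0.879), Plekhh1 (0.837), Etv4 (0.835) and Nrxn3 (0.82). For Erbb3 they were Irx2 (0.952), Prom2 (0.95), Spint2, a luminal marker (0.94), Lrrc75b (0.936) and Cdcp1 (0.934). Those nearest to Egfr were Rangap1 (0.838), Gnl3 (0.809), Smarcc1 (0.808), Txlna (0.8) and Ttpal (0.799). For Egf they were Zfand1 (0.802), Rwdd3 (0.801), Zfp113 (0.75), Bcl7a (0.748) and Rab2b (0.748). The libraries share their groups and their tissue content, so these values describe likeness only.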

How the data were processed

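The 40 libraries were stranded poly(A) RNA-seq of mouse mammary gland, 5 mice in each of 8 groups, per the labels' protocols. The authors deposited gene counts in 2 tables, the first of the 60 h and 108 h libraries and the second of the 84 h and 132 h ones, with matching tables of deposited RPKM (reads per kilobase of gene, scaled to library size). The build was GRCm38, per the submitters' processing notes; for aligner, counter and gene model the entry is "not given in the sources used here", so antisense or overlapping reads cannot be told apart. The sample columns not used number 0. No pair of libraries among 780 agreed within sampling noise.

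Counts were tested with edgeR 4.0.16 in R 4.3.3 (TMM, filterByExpr with minimum count 10 and total 15, robust quasi-likelihood F test, Benjamini-Hochberg over all genes, threshold 0.05), 20 libraries of a table per fit. Differences between times and the controls across times used all 40. An SE is the absolute log2 fold change over the square root of F, and 95% fold intervals use the normal quantile. The scripts were tested on simulated data.

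List means and likeness used log2 CPM with prior count 2; a library high in skin or muscle markers has a list mean above 1.5. Epgn, below the filter at 60 h and 108 h, was tested on log2(CPM + 0.1). Each result was recomputed with DESeq2 1.42.0, RLE or upper-quartile scaling, no filter, a minimum count of 50, limma 3.58.1 on log2(RPKM + 0.1) and log2(RPKM + 1), other sets of libraries in the fit and a term for the animal-number run in the CLA fits.

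The members and lists were chosen with earlier results of these data known. Named genes were all members and other ligands, at most 3 called genes per pathway list and 2 per marker list by smallest p, genes within 500 kb of Areg, and the 5 genes most like a member among those with a mean of at least 1 log2 CPM.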

Additional observations from a re-analysis of the deposited data

Results flagged for a closer look

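Log2 CPM (prior count 2) of the 10 members were screened for single libraries far from the other 4 of their group by Dixon's criterion. Of 80 sets of 5 libraries 2 met it, and chance gives about 1 in 20. Hbegf in control replicate 3 at 60 h was at 2.75 CPM while the other 4 ran from 3.31 to 3.56. Tgfa in CLA replicate 3 at 108 h was at 1.79 CPM while the other 4 ran from 3.57 to 4.02.

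The CLA effect differed from the estrogen effect of the same table in 9 tests by edgeR. At 108 h against 60 h the log2 differences were -8.04 for Areg, 0.68 for Hbegf, -0.74 for Erbb2 and -1.67 for Erbb3. At 132 h against 84 h they were -8.96 for Areg, -3.68 for Ereg, -2.90 for Tgfa, -1.07 for Erbb2 and -2.12 for Erbb3. The Ereg difference lost its call in 12 of 20 leave-one-out fits (highest adjusted p 0.136) and the Hbegf difference in 1 of 20 (0.0516).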

How the results depend on the processing

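No paired analysis was possible because the labels give no replicate number that groups share: each mouse has its own animal number, and replicates 1 to 5 are named here in accession order. Every one of the 80 member results kept its call under RLE scaling, and 78 did under DESeq2, where 2 more were called. Without the libraries high in skin markers 3 reversed: Tgfa with CLA at 132 h to 0.13, Erbb2 with CLA at 132 h to 0.26 and the Ereg difference of CLA at 132 h and estrogen at 84 h to 2.31 (adjusted p = 0.359).

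Counts of genes called moved as follows. Estrogen at 60 h (1119) gave 1878 by DESeq2, 593 with no filter, 680 by limma on log2(RPKM + 1), 742 with the 2 groups alone, 513 without the libraries high in skin markers and 380 without those high in muscle markers. Estrogen at 84 h (931) gave 1617 by DESeq2 and 303 and 279 without those 2 sets. The CLA minus estrogen difference at 132 h and 84 h (6536) gave 3453 without the skin set. The estrogen time difference (1) gave 17 by DESeq2 and 0 by limma on log2(RPKM + 0.1) and without either set. The CLA time difference (0) gave 114 by DESeq2, 2 with no filter, 3 with a minimum count of 50, 5 and 14 by limma with 0.1 and 1 added, and 4 without the muscle set. Controls across times (2385) gave 990 and 900 by limma with 0.1 and 1 added, and 16 and 314 without the skin and muscle sets.

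Counts of members moved too. CLA at 108 h (5) gave 2 with no filter and 3 by limma with 0.1 or 1 added, without the skin set, without the muscle set, with the 2 groups alone, with all 40 libraries and with a term for the animal-number run. CLA at 132 h (5) gave 3 without either set, and estrogen at 84 h (3) gave 5 with the 2 groups alone. The difference at 108 h and 60 h (4) gave 2 without the muscle set. That at 132 h and 84 h (5) gave 3 by limma with 0.1 or 1 added, 0 without the skin set and 1 without the muscle set. Controls across times (4) gave 1 and 0 by limma with 0.1 and 1 added, and 0 without either set. Of all genes, 35.8% and 41.8% were called for CLA at 108 h and 132 h without the skin set, and 39.4% and 48.9% without the muscle set. For the early and the late difference the shares were 21.9% and 19.7% without the skin set, and 22.9% and 29.0% without the muscle set. For controls they were 0.0879% and 1.74%. Shares under the other settings are not given here.

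Leaving out 1 library gave 316 to 1210 genes for estrogen at 60 h, lowest without estrogen replicate 1, and 443 to 1152 at 84 h, lowest without control replicate 1. For CLA it gave 7637 to 8367 at 108 h and 8984 to 9557 at 132 h. The CLA minus estrogen differences gave 5020 to 5918 and 6004 to 6768, the estrogen time difference 1 to 2, the CLA time difference 0 to 137, highest without CLA replicate 4 at 108 h, and controls 1703 to 2661. Members called were 2 to 2 and 1 to 3 for estrogen, 2 to 4 and 4 to 5 for CLA, 4 to 6 and 4 to 5 for the differences, 0 to 0 for both time differences and 3 to 5 for controls. The cause was not tested. By limma on log2(RPKM + 0.1) the median of all genes with CLA at 132 h shifted by 0.14 and 67.2% of calls were higher, against 48.2%, while upper-quartile scaling took the share for the difference at 108 h and 60 h from 53.6% to 37.5%. Depth limits Areg and Ereg in controls at 60 h and 84 h, which rest on a few reads.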
